A study of Saccharomyces cerevisiae with 11 samples.

Results

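Condensin and the Smc5/6 complex are, with cohesin, the ring-shaped protein machines that organise chromosomes, and the RNA of 10 of their genes was followed here across 4 SCC2 conditions. The genes were taken by name: SMC2, SMC4, BRN1, YCG1 and YCS4 of condensin, and SMC5, SMC6, NSE1, NSE4 and MMS21 of Smc5/6. They are 10 of the 7035 features used from the deposited table, and 10 of 10 passed the filter on low values. RNA came from budding yeast (Saccharomyces cerevisiae), MATa cells of strain W303, sequenced after ribosomal RNA depletion as stranded 50 bp single reads. All cultures carried can1-100 and the auxotrophic alleles trp1-1 and ade2-1, others at his3 (his3-11,15) and leu2 (alleles 3 and 112), the auxin receptor OsTIR1 under the ADH1 promoter at ura3-1, and the chromosomal SCC2 fused to an auxin-inducible degron and FLAG tags. SCC2 encodes the large subunit of the cohesin loader, and auxin (IAA) leads to degradation of the tagged protein. What differed was the HIS-marked plasmid pRS413: MYC-tagged SCC2 (WT, 3 cultures), the same with the variant R787G (3 cultures) or G1242V (3 cultures), or no SCC2 on the plasmid (NULL, 2 cultures). NULL keeps the chromosomal degron copy. All 11 cultures grew in medium lacking histidine with 1 mM IAA for 9 hours, so WT is a degron strain kept by a plasmid copy and not an untreated strain.

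Condensin is built on an ATPase pair, Smc2 and Smc4, closed by the kleisin Brn1, on which the HEAT-repeat subunits Ycs4 and Ycg1 sit. It compacts chromosomes for mitosis and is known for its work at the ribosomal DNA. In Smc5/6 the ATPase pair is Smc5 and Smc6, Nse4 is the kleisin, Nse1 carries a RING domain and pairs with Nse3, and Mms21 (Nse2) is a SUMO ligase. That complex is known for its part in DNA repair and replication, again with the ribosomal DNA among its sites.

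SCC2 itself, which the files count over the chromosomal and plasmid copies together, stood at 22.5 and 23.9 scaled TPM in NULL. It was at 77.9 to 96.6 in G1242V, 100 to 132 in R787G and 100 to 125 in WT. The 3 G1242V libraries thus lay below those of WT and R787G, and no test of SCC2 is given here. With the copies counted together, the level does not show which copy the RNA came from. TPM are transcript abundances per length, relative to a fixed total per library, here multiplied by 1 factor per library. Sequencing depth is unknown, so precision shows only through the spread between cultures, and no value below rests on a read count. Across genes, log2 levels correlated at r of 0.984 to 0.996 within groups and at 0.916 to 0.984 between them. WT replicate 2 held 9.2% of its TPM in ribosomal RNA, against 0.182% to 0.525% in the other 10. Transcripts of 5 genes specific to mating type a summed to 400 to 770 scaled TPM per library, and those of 3 genes specific to type alpha to 6.71 to 18.2. The median level of chromosome I differed from the WT mean by -0.542 to 0.469 on the log2 scale between libraries. WT replicates 1 and 2 themselves stood at 0.469 and -0.432. For chromosome IX the range was -0.121 to 0.446, the latter in R787G replicate 3. No member lies on either chromosome. On the members' own chromosomes the median log2 difference from WT stayed between -0.0443 and 0.185 in every library.

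The stretches upstream of 8 members are shown because they hold the promoter motifs described next. Each runs 5′ to 3′ from 200 to 61 bases before the annotated start of the gene, read from the R64 reference genome (the assembly named sacCer3), which is that of another strain, S288C. The windows are chrVI:220167-220306 (minus strand), chrXII:302043-302182 (plus), chrII:40631-40770 (plus), chrIV:1116926-1117065 (plus) and chrXII:687263-687402 (minus) for condensin, and chrXV:259723-259862, chrXII:885088-885227 and chrIV:272189-272328 (all plus) for Smc5/6. Capitals mark GTAAACA, the core bound by forkhead factors, ACGCGT, the MCB element, and CGCGAAA or CACGAAA, the SCB element, on either strand.
SMC2: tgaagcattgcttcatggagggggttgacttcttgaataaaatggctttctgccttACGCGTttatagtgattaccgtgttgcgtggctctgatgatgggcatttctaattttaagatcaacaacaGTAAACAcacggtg
SMC4: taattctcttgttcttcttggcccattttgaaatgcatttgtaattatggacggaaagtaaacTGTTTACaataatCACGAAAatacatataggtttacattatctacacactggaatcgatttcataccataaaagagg
BRN1: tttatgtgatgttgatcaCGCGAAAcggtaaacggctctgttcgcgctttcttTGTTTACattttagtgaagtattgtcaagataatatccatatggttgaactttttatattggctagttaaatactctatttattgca
YCG1: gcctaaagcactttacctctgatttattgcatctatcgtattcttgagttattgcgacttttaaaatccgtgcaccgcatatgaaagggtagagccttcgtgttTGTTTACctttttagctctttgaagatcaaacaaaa
YCS4: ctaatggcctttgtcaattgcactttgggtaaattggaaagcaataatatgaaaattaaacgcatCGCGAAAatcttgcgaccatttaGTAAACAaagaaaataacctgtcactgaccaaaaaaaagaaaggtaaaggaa
SMC5: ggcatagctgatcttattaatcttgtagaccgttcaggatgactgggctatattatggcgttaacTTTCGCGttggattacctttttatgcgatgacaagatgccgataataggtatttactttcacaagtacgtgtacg
SMC6: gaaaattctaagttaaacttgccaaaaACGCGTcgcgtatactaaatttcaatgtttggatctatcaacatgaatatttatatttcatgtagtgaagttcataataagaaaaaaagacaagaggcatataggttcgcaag
NSE4: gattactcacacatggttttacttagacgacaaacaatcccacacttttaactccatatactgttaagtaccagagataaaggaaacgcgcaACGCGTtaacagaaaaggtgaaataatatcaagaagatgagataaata

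Windows of 300 bases, from 250 bases before to 50 after the start, were searched for these motifs on both strands in 6001 nuclear protein-coding genes. This start is that of the coding sequence and not a mapped transcription start, so the windows also take in transcribed bases. The forkhead core GTAAACA was present in all 5 condensin windows and in none of the 5 of Smc5/6, and 6.55% of all windows hold it. Counted from the start of the gene, its first base lay at -74 in SMC2, -137 in SMC4, -147 in BRN1, -96 in YCG1 and -112 in YCS4. An MCB or SCB element, the sites of the MBF and SBF factors of the G1 to S transition, was found in 7 of the 10 members and in 10.4% of all windows. MCB (ACGCGT, 3.07% of windows) was found in SMC2, SMC6 and NSE4. The CGCGAAA form of SCB (3.6% of windows) was found in BRN1, YCS4 and SMC5, and the CACGAAA form (4.2%) in SMC4. MCB and the CGCGAAA form of SCB share the letters CGCG, but as spelled they cannot both match on the same CGCG. Both kinds, forkhead and MCB or SCB, stood together in SMC2, SMC4, BRN1 and YCS4, as in 0.917% of all windows. The stress element AGGGG (21.6% of windows) was found in SMC2 and NSE1, the PAC motif GATGAG (20.4%) in NSE1 and NSE4, and the Reb1 motif TTACCCG (7.08%) in none. MMS21 held none of the motifs searched. Of the Smc5/6 subunit genes outside the list of 10, NSE3 held a stress element, KRE29 a PAC motif and NSE5 no match. None of these held a forkhead core, MCB or SCB. A match describes letters in a window and is no evidence of binding.

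**Figure D1:**
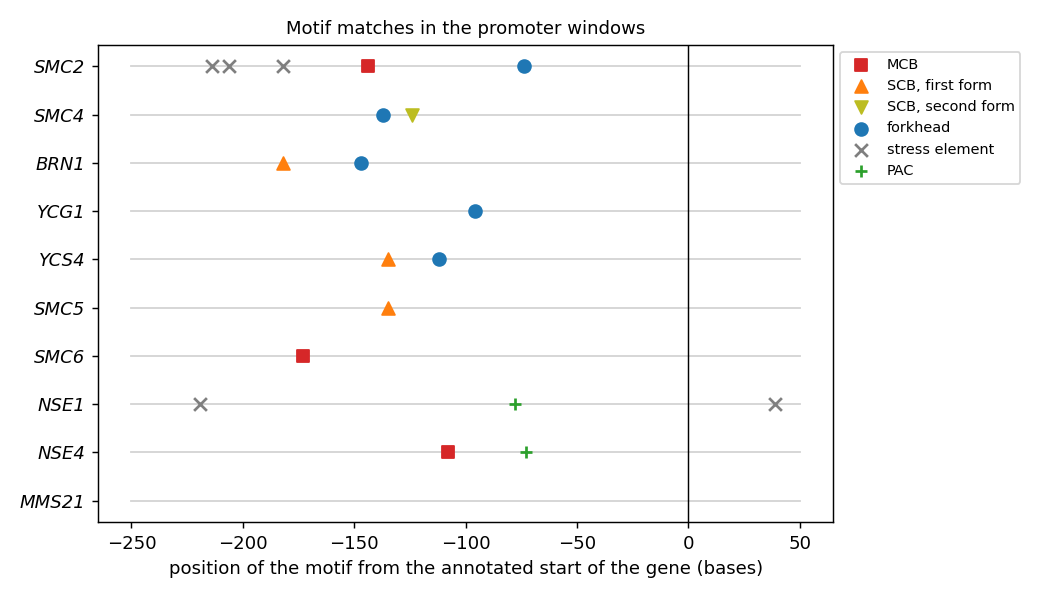
Position of each motif match (first base, in bases from the annotated start of the gene, x axis) in the window of each of the 10 genes (rows). Forkhead matches, drawn as circles, appear in the 5 condensin rows alone, between -147 and -74.

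In NULL against WT, 4 of the 5 condensin members and 4 of the 5 Smc5/6 members rose. The median log2 difference was 0.37 over the former 5 and 0.85 over the latter 5. SMC6 went from 14.5 ± 1.24 scaled TPM in WT (SD, n = 3) to 33.2 ± 1.00 in NULL (SD, n = 2), and MMS21 from 9.54 ± 1.40 to 19.1 ± 0.67. SMC4 was the one member lower in all 3 groups than in WT past the test, and NSE1 was lower in G1242V. Of the 10 members, 8 rose and 1 fell in NULL against WT, 6 rose and 1 fell in R787G, and 4 rose and 2 fell in G1242V, at an adjusted p under 0.05 from limma (Benjamini-Hochberg over the 6432 features tested). Of all features tested, 62% passed in NULL (36.8% higher, 25.2% lower), 65.8% in R787G (36.5% higher, 29.3% lower) and 54% in G1242V (26.6% higher, 27.3% lower). A call as such is therefore common in these data, and the sizes below say more than the counts. The median log2 difference of the 10 members was 0.66 in NULL, 0.37 in R787G and 0.15 in G1242V, beside 0.09, 0.07 and 0.00 for all features. These 3 comparisons share the WT libraries. In the F test over the 4 groups 9 of 10 members passed, all but BRN1, beside 86.3% of all features.

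**Figure D2:**
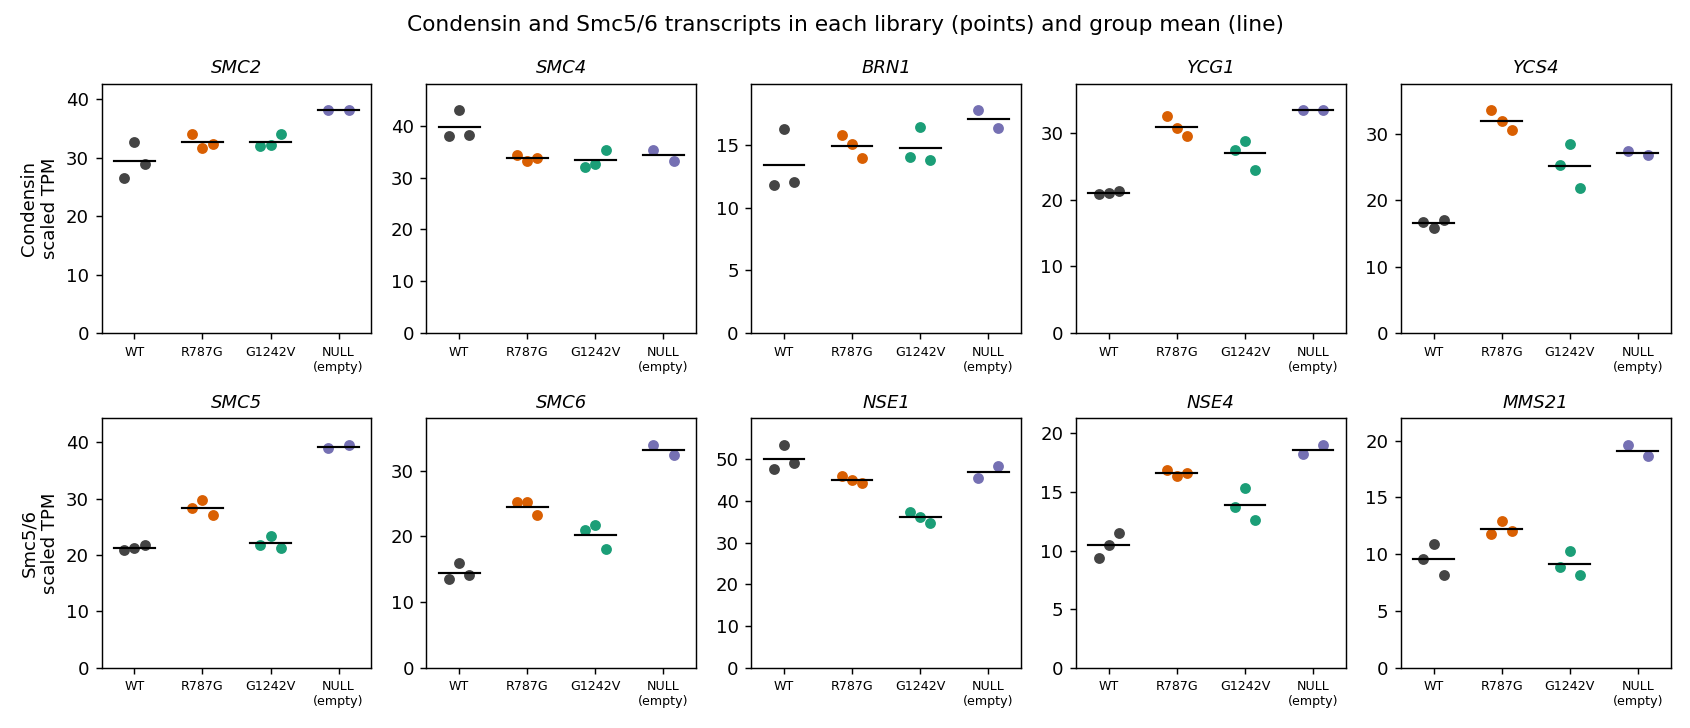
Scaled TPM (y axis, from 0) of each member in each of the 11 libraries (points) by group (x axis), with the group mean as a line, condensin above and Smc5/6 below. SMC5, SMC6 and MMS21 are highest in both NULL libraries, and SMC4 is highest in the 3 WT libraries.

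Of the condensin ATPase genes, SMC2 rose and SMC4 fell in NULL in the fit used here, but the fall depended on the scaling. SMC2 (YFR031C, chromosome VI, 216594 to 220106, minus strand) stood at 26.5, 32.6 and 29.0 scaled TPM in the WT cultures, 34.0, 31.7 and 32.4 in R787G, 32.0, 32.2 and 34.1 in G1242V, and 38.1 in both of NULL. The NULL libraries lay above the other 9, while both variants overlapped WT. SMC2 rose in NULL by a log2 difference of 0.37 ± 0.082 (SE, limma adjusted p = 0.00302; 0.59 in unscaled TPM and 0.63 with TPM rescaled to coding genes), and in R787G the difference was 0.15 (95% interval -0.01 to 0.32) and in G1242V 0.16 (-0.01 to 0.32). Without WT replicate 2, the library with high ribosomal RNA, both variants passed, each with 0.23 (limma adjusted p = 0.00855 for R787G and 0.0112 for G1242V). R787G also passed in unscaled TPM (0.25, limma adjusted p = 0.0199) and G1242V under quantile normalization (0.21, 0.0276). SMC4 (YLR086W, chromosome XII, 302243 to 306499, plus strand) stood at 38.1, 43.0 and 38.2 in WT, 34.3, 33.3 and 33.8 in R787G, 32.1, 32.7 and 35.3 in G1242V, and 35.4 and 33.3 in NULL. The 3 WT libraries were the highest of the 11. SMC4 fell by 0.22 ± 0.063 in R787G (limma adjusted p = 0.00996), by 0.24 ± 0.063 in G1242V (limma adjusted p = 0.00823) and by 0.20 ± 0.07 in NULL (limma adjusted p = 0.029). These small falls depend on the scaling: in NULL the difference was 0.02 in unscaled TPM and 0.06 after the rescaling, neither of them called, and in R787G it was -0.13 and -0.19 there, also not called. With only the groups compared, the calls in NULL (limma adjusted p = 0.104) and G1242V (0.0505) ended. The NULL call also ended without WT replicate 2 (-0.15, limma adjusted p = 0.0597), without NULL replicate 1 (-0.25, limma adjusted p = 0.0557) and without NULL replicate 2 (-0.16, limma adjusted p = 0.184).

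BRN1, the kleisin gene (YBL097W, chromosome II, 40831 to 43095, plus strand), was the condensin transcript of lowest level, and the only member that did not pass the F test over the 4 groups (limma adjusted p = 0.16). It stood at 11.8, 16.3 and 12.1 scaled TPM in WT, 15.8, 15.1 and 14 in R787G, 14.1, 16.5 and 13.8 in G1242V, and 17.8 and 16.4 in NULL. WT replicate 2 lay within the range of the other groups, and WT replicates 1 and 3 below all of them. The rise in NULL was 0.34 ± 0.13 (limma adjusted p = 0.0456), a call that ended in 9 of the 11 fits that left out 1 library (all but those without G1242V replicate 2 or WT replicate 2). Under quantile normalization the NULL difference was 0.07 (limma adjusted p = 0.587), and in unscaled TPM and TPM rescaled to coding genes it was 0.55 and 0.59. In R787G the difference was 0.16 (95% interval -0.10 to 0.42) and in G1242V 0.14 (-0.12 to 0.40). Without WT replicate 2 these were 0.30 (limma adjusted p = 0.0157) and 0.28 (limma adjusted p = 0.0276).

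The genes of the 2 HEAT-repeat subunits rose in all 3 groups. YCG1 (YDR325W, chromosome IV, 1117126 to 1120233, plus strand) stood at 20.9, 21.0 and 21.3 scaled TPM in WT, 32.5, 30.8 and 29.6 in R787G, 27.5, 28.8 and 24.5 in G1242V, and 33.4 in both of NULL. WT and the other groups did not overlap, and G1242V lay between WT and R787G. The log2 differences from WT were 0.64 ± 0.072 in NULL (limma adjusted p = 4.67e-05), 0.53 ± 0.064 in R787G (6.13e-05) and 0.34 ± 0.064 in G1242V (0.00153). YCS4 (YLR272C, chromosome XII, 683672 to 687202, minus strand) stood at 16.8, 15.8 and 17.1 in WT, 33.6, 32.0 and 30.6 in R787G, 25.4, 28.5 and 21.9 in G1242V, and 27.4 and 26.9 in NULL. Here the R787G libraries were the highest of all. YCS4 rose by 0.91 ± 0.086 in R787G (limma adjusted p = 1.26e-05), 0.68 ± 0.096 in NULL (2.09e-04) and 0.57 ± 0.086 in G1242V (3.53e-04). Between R787G and NULL the difference was 0.24 (95% interval 0.02 to 0.45, limma adjusted p = 0.0772) and did not pass. It did pass under quantile normalization (0.34, limma adjusted p = 0.012), with only the groups compared (0.00834), and without G1242V replicate 2 (0.04) or G1242V replicate 3 (0.0237).

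The Smc5/6 ATPase genes both rose in NULL, SMC6 the more so. SMC5 (YOL034W, chromosome XV, 259923 to 263204, plus strand) stood at 20.9, 21.3 and 21.8 scaled TPM in WT, 28.4, 29.7 and 27.1 in R787G, 21.7, 23.3 and 21.3 in G1242V, and 38.9 and 39.5 in NULL. NULL lay above R787G and R787G above the rest, while G1242V overlapped WT. The differences were 0.85 ± 0.063 in NULL (limma adjusted p = 4.69e-06), 0.40 ± 0.056 in R787G (1.71e-04) and 0.05 in G1242V (95% interval -0.08 to 0.17), which turned to -0.02 after rescaling to coding genes. SMC6 (YLR383W, chromosome XII, 885288 to 888632, plus strand) stood at 13.5, 15.9 and 14.1 in WT, 25.2, 25.2 and 23.2 in R787G, 20.9, 21.8 and 18.1 in G1242V, and 33.9 and 32.4 in NULL. Its 4 groups did not overlap. SMC6 rose by 1.14 ± 0.092 in NULL (limma adjusted p = 6.7e-06), the largest difference from WT among the members, by 0.72 ± 0.082 in R787G (4.28e-05) and by 0.46 ± 0.082 in G1242V (0.00108).

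NSE4, the kleisin gene of Smc5/6 (YDL105W, chromosome IV, 272389 to 273597, plus strand), ran like SMC6 at a lower level. It stood at 9.40, 10.5 and 11.5 scaled TPM in WT, 16.9, 16.4 and 16.6 in R787G, 13.7, 15.3 and 12.6 in G1242V, and 18.2 and 19.0 in NULL, with no overlap between groups. The differences were 0.78 ± 0.095 in NULL (limma adjusted p = 8.03e-05), 0.62 ± 0.085 in R787G (1.34e-04) and 0.37 ± 0.085 in G1242V (0.00429). NSE1 (YLR007W, chromosome XII, 164392 to 165402, plus strand), the RING subunit gene and the member of highest level, followed another order. It stood at 47.6, 53.4 and 49.0 in WT, 46.1, 45.0 and 44.3 in R787G, 37.3, 36.2 and 34.7 in G1242V, and 45.6 and 48.3 in NULL. The 3 G1242V libraries were the lowest, and NULL overlapped WT and R787G. NSE1 fell by 0.46 ± 0.058 in G1242V (limma adjusted p = 1.29e-04), while the difference was -0.14 in R787G (95% interval -0.27 to -0.01, limma adjusted p = 0.053) and -0.09 in NULL (-0.23 to 0.06), the last turning to 0.14 in unscaled TPM and 0.17 once rescaled. The R787G difference passed without WT replicate 1 (-0.18), WT replicate 3 (-0.16) or G1242V replicate 3 (-0.15), under quantile normalization (-0.16), with the filter at 10 TPM and with robust eBayes (-0.14 in both).

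MMS21, the SUMO ligase gene (YEL019C, chromosome V, 120498 to 121301, minus strand), stood out in NULL. It was at 9.57, 10.9 and 8.13 scaled TPM in WT, 11.8, 12.9 and 12.0 in R787G, 8.88, 10.3 and 8.20 in G1242V, and 19.6 and 18.6 in NULL. NULL lay well above all others, R787G just above WT, and G1242V within it. The rise was 0.94 ± 0.12 in NULL (limma adjusted p = 9.79e-05) and 0.34 ± 0.11 in R787G (0.0168), the latter lost without R787G replicate 2 (0.30, limma adjusted p = 0.0578) or WT replicate 3 (0.23, 0.0589), and under quantile normalization (0.20, 0.0732). In G1242V the difference was -0.05 (95% interval -0.29 to 0.18).

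**Figure D3:**
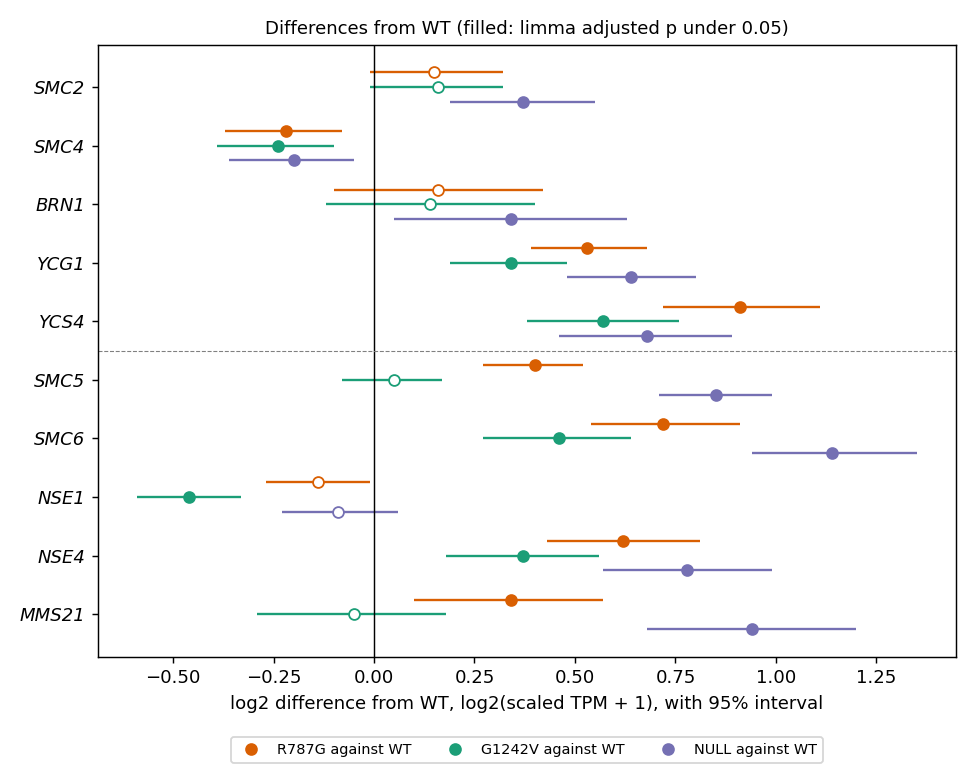
log2 difference from WT of each member (x axis) in R787G, G1242V and NULL, with the 95% interval from limma as a line. Filled points passed the test. SMC6 in NULL lies furthest to the right at 1.14 and NSE1 in G1242V furthest to the left at -0.46.

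The 3 Smc5/6 subunit genes outside the list of 10 did not rise past the test in NULL. NSE3 (YDR288W), the partner of NSE1, stood at 41.5 ± 10 scaled TPM in WT (SD, n = 3), 39.3 ± 1.33 in R787G, 48.6 ± 4.46 in G1242V and 42.3 ± 0.683 in NULL (SD, n = 2), with WT replicate 3 at 52.8 against 37.9 and 33.8 in the other WT libraries. NSE5 (YML023C) stood at 17 ± 1.76 in WT and 19.8 ± 0.647 in NULL, and KRE29 (YER038C), its partner, at 17.4 ± 0.648 and 18.7 ± 1.06. The NULL differences were 0.05 for NSE3, 0.22 for NSE5 and 0.09 for KRE29, of which none passed in limma and none had an unadjusted p under 0.05. Without WT replicate 3, NSE3 passed in NULL (0.23, limma adjusted p = 0.0499) and in G1242V (0.42, 0.00219). In unscaled TPM NSE5 (0.44, limma adjusted p = 0.00969) and KRE29 (0.31, 0.00867) passed, as they did once rescaled to coding genes (0.47 and 0.35), and under quantile normalization KRE29 was at -0.09. KRE29 fell in G1242V by 0.36 ± 0.068 (limma adjusted p = 0.00137), and NSE5 rose in R787G by 0.29 ± 0.10 (limma adjusted p = 0.0287), a call lost without any 1 of the R787G libraries and without WT replicate 3 (0.21, 0.107).

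In R787G against G1242V, 5 of 5 Smc5/6 members were higher in R787G and 2 of 5 of condensin, the HEAT-repeat genes. That made 7 of 10 higher and 0 lower (0 lower also at an unadjusted p under 0.05, limma), beside 46.2% of all features called (26.3% of all features higher and 19.9% lower). The Smc5/6 differences were 0.39 ± 0.11 for MMS21 (limma adjusted p = 0.0133), 0.35 ± 0.056 for SMC5 (0.00117), 0.32 ± 0.058 for NSE1 (0.00224), 0.27 ± 0.082 for SMC6 (0.0239) and 0.25 ± 0.085 for NSE4 (0.0347). In condensin they were 0.34 ± 0.086 for YCS4 (0.0101) and 0.20 ± 0.064 for YCG1 (0.0307), and within 0.02 of 0 for SMC2 (95% interval -0.17 to 0.16), SMC4 (-0.12 to 0.16) and BRN1 (-0.24 to 0.28). The count fell to 4 under quantile normalization, 4 without G1242V replicate 3, 4 without R787G replicate 1 and 3 without R787G replicate 2. The calls lost there were among YCG1, SMC6, NSE4 and MMS21, and the NSE4 call also ended without G1242V replicate 1, R787G replicate 3 or either NULL library (0.24 to 0.25). That of YCG1 also ended without G1242V replicate 1 (0.21) and with only the groups compared (limma adjusted p = 0.0612).

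Against NULL, 3 of 5 Smc5/6 members were lower in R787G and 5 of 5 in G1242V, and 0 and 2 of the 5 condensin members. In all, R787G had 3 of 10 members lower and 0 higher (39.9% of all features called, 16.9% higher and 23% lower): MMS21 (-0.60 ± 0.12, limma adjusted p = 0.00393), SMC5 (-0.45 ± 0.063, 0.00105) and SMC6 (-0.42 ± 0.092, 0.00651). Of condensin 0 of 5 passed in limma, with 1 higher and 1 lower at an unadjusted p under 0.05. The differences there ran from -0.21 for SMC2 (95% interval -0.40 to -0.03) to 0.24 for YCS4. The count was 6 in unscaled TPM, 9 once rescaled to coding genes and 6 with only those groups in the fit, and the SMC6 call ended without NULL replicate 1 (-0.39, limma adjusted p = 0.0581). G1242V had 7 of 10 lower and 0 higher (63% of all features called, 25.6% higher and 37.4% lower), with 0 higher also at an unadjusted p under 0.05. In unscaled TPM and after rescaling to coding genes 10 of 10 were lower, with condensin medians of -0.44 and -0.51, and under quantile normalization 5 were, without NSE4 (-0.16, limma adjusted p = 0.111) and SMC2 (-0.08, 0.392). In the fit used here, all 5 Smc5/6 members were among them, from MMS21 (-0.99 ± 0.12, limma adjusted p = 8.83e-05), SMC5 (-0.80 ± 0.063, 1.22e-05) and SMC6 (-0.69 ± 0.092, 1.76e-04) to NSE4 (-0.41 ± 0.095, 0.00429) and NSE1 (-0.37 ± 0.065, 8.97e-04). Of condensin YCG1 (-0.31 ± 0.072, 0.00445) and SMC2 (-0.21 ± 0.082, 0.0444) passed. The SMC2 call was lost without any 1 library of G1242V, NULL or R787G, where it lay between -0.21 and -0.19, but G1242V replicate 3.

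Scaling matters most where NULL is involved. The median log2 difference of all features in NULL against WT was 0.09. It was 0.31 in unscaled TPM and 0.35 once rescaled to coding genes, and in both 8 members rose and 0 fell. The share of calls that were higher was 59.3% here and 78.3% and 80.7% there. For R787G against G1242V this share was 57% here and 75.5% and 73.5% there, for R787G against NULL 42.4% against 21.4% and 13.2%, and for G1242V against NULL 40.6% against 20.7% and 16.4%. Beside these shifts of all features, the median in NULL against WT was 0.37, 0.59 and 0.63 for condensin and 0.85, 1.07 and 1.11 for Smc5/6 under the 3 scalings. Quantile normalization went the other way, to 0.30 for condensin, 0.69 for Smc5/6 and 0.00 for all features, with 51.3% of calls higher and 7 members up and 1 down.

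The 5 condensin transcripts summed to 148 to 152 scaled TPM in NULL, 140 to 150 in R787G, 130 to 139 in G1242V and 114 to 129 in WT. The 5 of Smc5/6 summed to 156 to 158, 123 to 129, 94.9 to 107 and 101 to 112 in the same order. These sums depend on the scaling between libraries. Ratios of transcripts within a library do not, where the scaling is by 1 factor per library. Condensin over Smc5/6 was 1.14 ± 0.0113 in WT, 1.14 ± 0.0315 in R787G, 1.31 ± 0.0463 in G1242V (SD, n = 3 each) and 0.956 ± 0.0255 in NULL (SD, n = 2). G1242V lay above and NULL below the other groups with no overlap, and WT and R787G overlapped. SMC2 over SMC4 was 0.738 ± 0.0362 in WT, 0.967 ± 0.0214 in R787G, 0.983 ± 0.0143 in G1242V and 1.11 ± 0.047 in NULL, so that the Smc2 and Smc4 transcripts were closest to even outside WT. SMC6 over SMC5 was 0.68 ± 0.0582 in WT, 0.865 ± 0.0181 in R787G, 0.917 ± 0.0589 in G1242V and 0.847 ± 0.0345 in NULL, again with WT below all other libraries. YCG1 over YCS4 was lowest in R787G at 0.964 ± 0.00316 and stood at 1.27 ± 0.0479 in WT, 1.07 ± 0.056 in G1242V and 1.23 ± 0.0159 in NULL. SMC2 over BRN1 was 2.21 ± 0.194 in WT and 2.19 to 2.24 in the means of the other groups. These ratios were chosen with the levels known and carry no test.

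**Figure D4:**
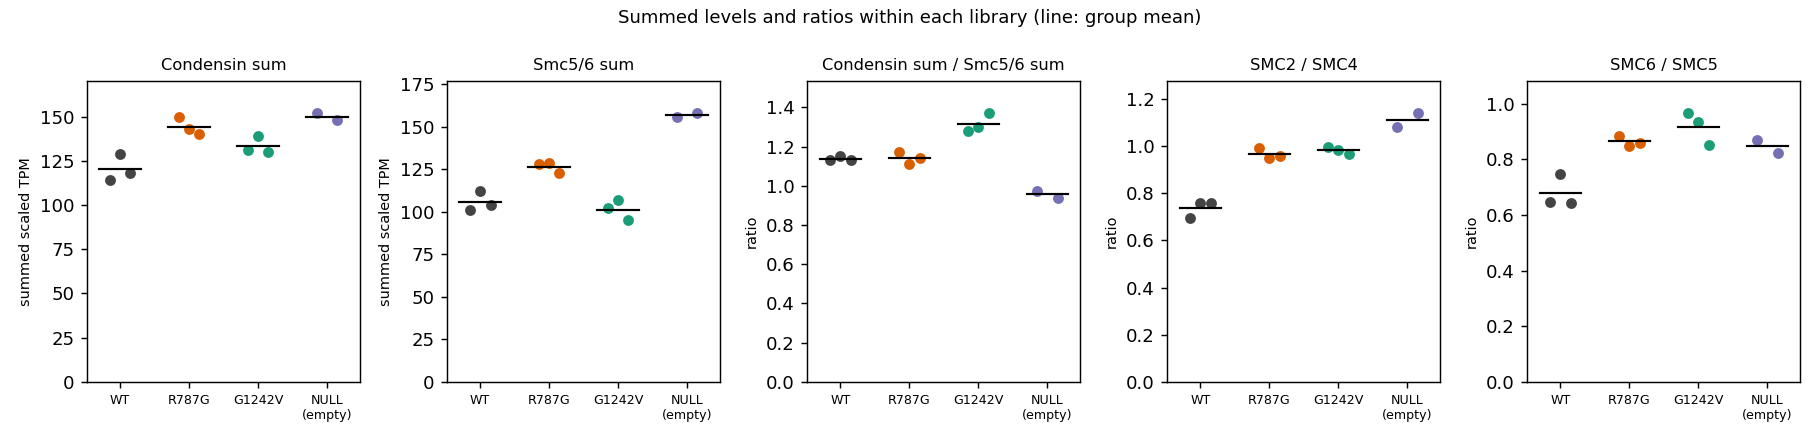
Summed scaled TPM of the 5 transcripts of each complex and 3 ratios (y axes, from 0) in each library (points) by group (x axis), with the group mean as a line. The SMC2 over SMC4 and SMC6 over SMC5 ratios of the 3 WT libraries lie below those of the other 8.

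As shares of each complex, the subunits were uneven in every group. SMC4 made up 33.1% ± 0.518 of condensin transcripts in WT (SD, n = 3) and 22.9% to 25.1% in the means of the other groups, and YCS4 13.8% ± 1.36 in WT and 18.1% to 22.2% elsewhere. BRN1 kept the smallest mean share, 10.4% to 11.4%. NSE1 took 47.2% ± 0.422 of the 5 Smc5/6 transcripts in WT, 35.6% ± 0.614 in R787G, 35.6% ± 1.52 in G1242V and 29.9% ± 0.974 in NULL (SD, n = 2). The SMC6 share was 13.7% ± 0.437 in WT, 19.3% ± 0.406 in R787G, 20.0% ± 0.762 in G1242V and 21.1% ± 0.8 in NULL.

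**Figure D5:**
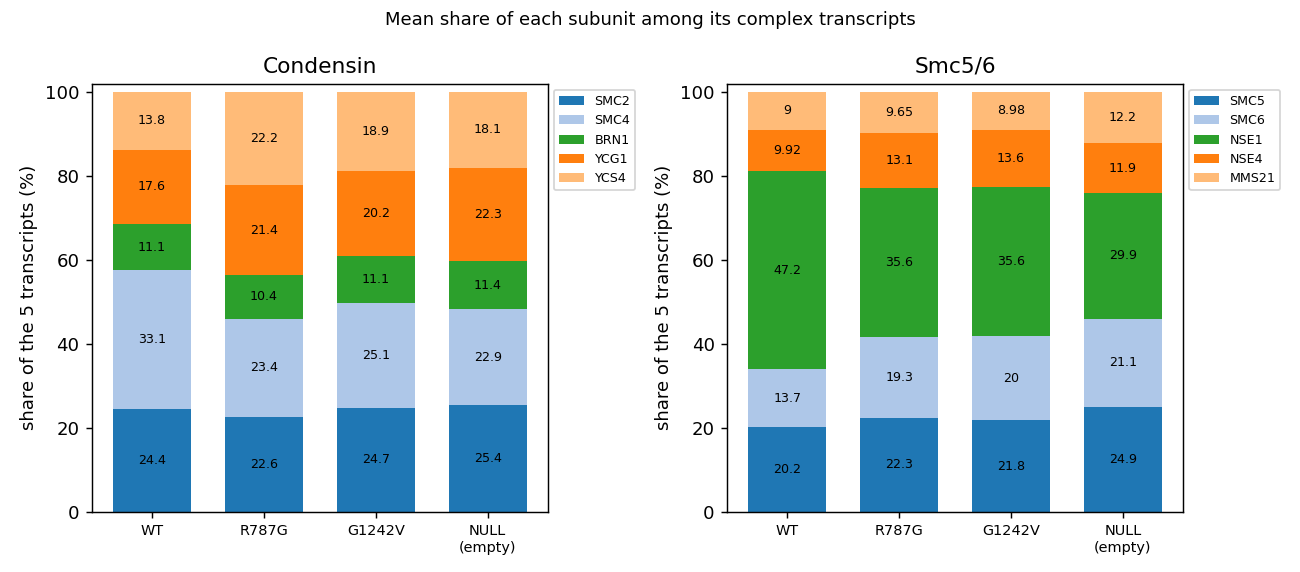
Mean share (y axis, percent) of each of the 5 transcripts within condensin (left) and Smc5/6 (right) in each group (x axis); bar segments carry their values. SMC4 and NSE1 have their largest shares in WT, 33.1% and 47.2%.

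Cohesin ring genes, the closest relatives, all rose in each comparison with WT. SMC1, SMC3, MCD1, IRR1 and PDS5 had medians of 0.91 in NULL, 1.03 in R787G and 0.72 in G1242V. Each time 5 of 5 were higher, beside 36.8%, 36.5% and 26.6% of all features. The 5 summed to 83.2 to 104 scaled TPM in WT and 160 to 203 in the other 8 libraries. The 203 was in R787G replicate 3, the library with the highest chromosome IX median. IRR1 stood at 52.3 there, against 38.2 and 39.1 in R787G replicates 1 and 2. SMC3, for example, rose by 1.20 ± 0.11 in NULL (limma adjusted p = 1.32e-05), SMC1 by 1.08 ± 0.10 and PDS5 by 0.91 ± 0.099. The condensin medians in the same comparisons were 0.37, 0.16 and 0.16. Those of the 5 Smc5/6 members were 0.85, 0.40 and 0.05, and the difference between complexes was not tested.

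Among 13 partners and regulators of condensin, 6 rose and 1 fell in NULL, 7 rose and 2 fell in R787G, and 7 rose and 3 fell in G1242V. Of all features tested, 62% were called in NULL (36.8% higher, 25.2% lower). In R787G 65.8% were (36.5% higher, 29.3% lower) and in G1242V 54% (26.6% higher, 27.3% lower). Rises in NULL were led by the Aurora kinase gene IPL1 (0.95 ± 0.074, limma adjusted p = 5.54e-06), SLI15 (0.79 ± 0.10, 1.08e-04), which encodes its INCENP partner, and the shugoshin gene SGO1 (0.77 ± 0.096, 9.49e-05). These rose in both variants too. LRS4, whose product helps recruit condensin to the ribosomal DNA, fell by 0.27 ± 0.10 in NULL (limma adjusted p = 0.0405), 0.36 ± 0.09 in R787G and 0.31 ± 0.09 in G1242V. The NULL call of LRS4 was lost in unscaled TPM (-0.05, limma adjusted p = 0.693), after rescaling (-0.02, 0.911), with only the groups compared (0.0929) and without any 1 of NULL replicates 1 and 2, R787G replicate 1 and WT replicates 1 and 2 (-0.29 to -0.19). Under quantile normalization it was -0.61, and there IPL1 stood at 0.61 and SGO1 at 0.38, all called. Of 16 SUMO pathway and Smc5/6 partner genes, 4 rose and 4 fell in NULL, 2 rose and 8 fell in R787G, and 2 rose and 9 fell in G1242V. RTT107, a repair scaffold gene, rose by 0.83 ± 0.10 in NULL (limma adjusted p = 8.02e-05), 0.96 ± 0.09 in R787G and 0.53 ± 0.09 in G1242V. TOP3, a topoisomerase gene, rose in NULL (0.63 ± 0.16, limma adjusted p = 0.00574) and fell in G1242V by 0.59 ± 0.14. Its NULL call ended without NULL replicate 1 (0.53, limma adjusted p = 0.0564). UBA2, of the SUMO activating enzyme, rose by 0.57 ± 0.076 in NULL (limma adjusted p = 1.41e-04). SMT3, which encodes SUMO, went from 966 to 558 scaled TPM in NULL (a fall by 0.79 ± 0.13, limma adjusted p = 4.64e-04), and RMI1 (-0.46 ± 0.089, 0.00132) and the SUMO ligase gene SIZ1 (-0.38 ± 0.078, 0.00196) fell as well. In unscaled TPM RMI1 (-0.24, limma adjusted p = 0.0559) and SIZ1 (-0.16, 0.125) did not pass, nor after rescaling (-0.20 and -0.13). SMT3 did not pass under quantile normalization (-0.39, limma adjusted p = 0.0536) and was -0.52 after rescaling, and SIZ1 was -0.61 under quantile normalization.

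Transcripts that mark stages of the cell cycle also differed between groups. Of all features tested, 62% were called in NULL against WT, 65.8% in R787G and 54% in G1242V. Of 8 genes of G1 and S phase 6 rose and 1 fell in NULL, 8 rose in R787G and 7 in G1242V. In NULL the PCNA gene POL30 was at 1.65 ± 0.20 (limma adjusted p = 7.63e-05), the replication gene CDC45 at 1.48 ± 0.11 (4.23e-06) and the cyclin gene CLB6 at 1.19 ± 0.22 (9.73e-04). The G1 cyclin gene CLN2 was at -0.60 ± 0.19 there (0.0188). CLB6 was at 0.23 under quantile normalization (limma adjusted p = 0.319). CLN2 was not called in unscaled TPM (-0.38, limma adjusted p = 0.0938), after rescaling (-0.34, 0.111), with only the groups compared (0.0611) or without NULL replicate 2 (-0.52, 0.117). Of 8 G2/M genes 0 passed in NULL in limma (0 higher and 1 lower at an unadjusted p under 0.05), while 6 rose in R787G and 7 in G1242V. Of 8 M/G1 genes 7 fell in NULL, among them the cell separation genes DSE2 (-1.71 ± 0.20, limma adjusted p = 6.6e-05), SCW11 (-1.31 ± 0.13, 1.86e-05) and EGT2 (-1.29 ± 0.14, 3.92e-05), against 1 lower in R787G and 3 higher in G1242V. The summed level of the G1 and S phase genes was 292 to 301 scaled TPM in NULL, 420 to 455 in R787G, 301 to 414 in G1242V and 166 to 225 in WT. The part of these cell cycle lists in the members' levels was not tested. In bulk cultures fewer cells of a stage and less RNA per cell cannot be told apart. Of 8 DNA damage genes 5 rose and 1 fell in NULL, 5 rose and 2 fell in R787G, and 4 rose and 2 fell in G1242V. HUG1, an inhibitor of ribonucleotide reductase, rose by 3.27 ± 0.24 in NULL (limma adjusted p = 4.42e-06), 2.24 ± 0.21 in R787G and 1.23 ± 0.21 in G1242V. The reductase genes RNR3 (1.16 ± 0.13, 5.49e-05) and RNR4 (0.81 ± 0.094, 5.81e-05) rose in NULL and RNR2 fell by 0.47 ± 0.062 (1.44e-04), a difference of -0.23 in unscaled TPM and -0.20 after rescaling.

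The members' own patterns over the 11 libraries, given as a description since the libraries share groups and scaling, split each complex. On log2 values, YCG1 and NSE4 had a Pearson's r of 0.977, YCG1 and SMC6 0.964, and SMC5 and MMS21 0.954, so the closest pairs included ones across complexes. SMC4 had negative r with SMC2 (-0.33) and YCS4 (-0.834), and NSE1 had 0.631 with SMC4 and -0.0721 with SMC6. Of 5004 named genes of at least 10 scaled TPM on average, those most like the mean pattern of condensin were MPS1 (r = 0.941), a kinase gene of spindle pole duplication and the spindle checkpoint, the kinetochore gene CTF19 (0.936), the replication kinase gene CDC7 (0.936), STB1 (0.935), of a regulator of G1 transcription, and RTT102 (0.927), of a chromatin remodeller subunit. MPS1 went from 33.2 scaled TPM in WT to 45.4 in NULL and CDC7 from 19.9 to 32.2. An r of at least 0.9 was reached by 26 genes (0.52%), and after quantile normalization r fell to between 0.652 and 0.899 for these 5. For Smc5/6 the same r was reached by 210 genes (4.2%), led by RGT1 (0.988), a repressor gene of glucose transporters, PAU14 and PAU1 (both 0.986), RCY1 (0.985), of a membrane recycling protein, and DIT1 (0.984), of a spore wall enzyme. Of 3 markers of meiosis (IME1, SPO13 and SPS1), 3 rose in NULL, 2 in R787G and 2 in G1242V. Of all features 36.8%, 36.5% and 26.6% rose in these comparisons. The summed level of the 3 markers was 37.5 to 40.7 scaled TPM in NULL, 20.1 to 21.2 in R787G, 11.9 to 14.2 in G1242V and 9.18 to 11.1 in WT. The sum of the 3 genes specific to mating type alpha was 14.8 to 15.9 in NULL, 12.6 to 18.2 in R787G, 6.71 to 10.1 in G1242V and 7.64 to 8.46 in WT, with MF(ALPHA)2 listed at 0 in WT replicate 1. The part of either list in the Smc5/6 levels was not tested. PAU14 and PAU1 are near-identical copies whose listed means were equal, so they count as 1. The mean RGT1 level was 93.6 scaled TPM in NULL, 61.1 in R787G, 39.4 in G1242V and 37.0 in WT.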

How the data were processed

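RNA was measured in 11 cultures of 4 groups by sequencing of ribosomal RNA-depleted total RNA. The authors deposited 1 table of TPM for all libraries, which its name credits to RSEM. Per the submitters' processing notes the build was sacCer3 and the tools were edgeR, RSEM, STAR and bcl2fastq 2.17. How strand was handled in counting and which annotation served is not stated there. Depth is unknown, so no count model was used. Replicates are numbered in the labels and were taken as separate cultures. The p-values set group differences against the spread between replicates, estimated over all 11 libraries. NULL, with 2 libraries, thus draws on the spread of the other groups.

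Of 7036 rows, 1 whose fields were displaced was dropped. Locus tags matched 5955 of 7035 rows to the R64 annotation, all members among them. 4777 rows had a blank name. No member overlaps another annotated gene. Each library was scaled by 1 factor (median of ratios, 0.88 to 1.08) from the 5221 genes that reached 10 TPM throughout. The 6432 features with at least 1 TPM in 2 libraries were tested on log2(scaled TPM + 1), which understates changes at low levels, with limma 3.58.1 in R 4.3.3 (trend, two-sided, Benjamini-Hochberg, threshold 0.05), all libraries in 1 fit without covariates.

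Members, lists and tests were chosen with earlier results of these data known. Genes named beside the members were, per list, up to 3 called in each direction by size in NULL against WT, and the 5 genes most like each complex. Promoter windows were read from the R64 genome in Python 3.11.15, and figures drawn with matplotlib 3.10.9. Alternatives were 3 other scalings, a replicate block, a fit of the compared groups alone, each library left out, eBayes in robust form or without trend, pseudocounts of 0.1 and 5, and the low-value filter dropped or raised to 10 TPM. In simulated data with 100 genes changed per size in each comparison, the fit recovered 57% to 77% of those at 0.5 (log2) and 90% to 98% at 1, and 4.49% to 7.47% of calls were false. Those changes were few and equally up and down, with no shift of all features. Errors from the scaling are therefore not covered, and the rates need not hold for the calls here.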

Additional observations from a re-analysis of the deposited data

How the results depend on the processing

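In the fits that left out 1 library, members past the threshold ranged from 7 to 9 for NULL against WT, 6 to 9 for R787G against WT, 6 to 8 for G1242V against WT, 3 to 7 for R787G against G1242V, 2 to 4 for R787G against NULL, 6 to 7 for G1242V against NULL and 8 to 10 for the F test over the 4 groups (9 with all libraries; BRN1 did not pass). A lone NULL library was then assumed to vary like the other groups. The count for R787G against G1242V was 4 under quantile normalization, and that for R787G against NULL 6 in the TPM as deposited, 9 after rescaling to coding genes and 6 with only the groups compared. Over all features the latter comparison had 2564 calls, 4103 with only the groups compared, and 1098 to 2879 with 1 library left out (1098 without NULL replicate 1, 1121 without NULL replicate 2). Summed condensin levels in G1242V were 125, 124 and 139 scaled TPM in the TPM as deposited, after rescaling and under quantile normalization (133 here), and in NULL 169, 176 and 141 (150 here; 146 to 150 with either replicate left out). Smc5/6 sums in G1242V were 94.1 after rescaling (101 here), and in NULL 177, 184 and 149 (157 here; 154 to 156 with either replicate left out).

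Values of the Smc5/6 and condensin subunits that changed sign were not called under either setting, except SMC4 in NULL against WT (called here). In the TPM as deposited these were SMC4 (0.02) and NSE1 (0.14) in NULL against WT, NSE3 in R787G against WT (0.04), SMC2 in R787G against G1242V (0.11), NSE5 in R787G against NULL (-0.06) and NSE3 in G1242V against NULL (-0.06). After rescaling to coding genes they were SMC4 (0.06), NSE1 (0.17), SMC5 in G1242V against WT (-0.02), SMC2 (0.10), NSE5 (-0.15) and NSE3 (-0.14) in the same comparisons. Under quantile normalization they were KRE29 in NULL (-0.09) and R787G (-0.03) against WT and R787G against NULL (0.06), SMC4 (-0.04) and BRN1 (-0.11) in R787G against G1242V, SMC4 in R787G (0.05) and G1242V (0.09) against NULL, and BRN1 (0.08) and YCS4 (0.05) in G1242V against NULL. With 1 library left out, in R787G against G1242V SMC2 lay between -0.03 and 0.02, SMC4 between -0.01 and 0.06 and BRN1 between -0.03 and 0.09, SMC4 against NULL at 0.02 (R787G) and 0.00 (G1242V), and against WT MMS21 between -0.16 and 0.03 and NSE5 at up to 0.05 in G1242V, NSE3 between -0.08 and 0.23 in NULL and between -0.19 and 0.12 in R787G, and KRE29 at -0.01 in R787G. The cause was not tested.

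With the replicate number as a block, members past the threshold were 7, 7, 6, 7, 3 and 6 in the 6 comparisons in the order above and 9 in the F test; SMC4 (limma adjusted p = 0.0614) and BRN1 (0.0694) in NULL against WT and SMC2 in G1242V against NULL (0.0689) were not called. Same-numbered libraries of different groups deviated together with r of -0.159 to 0.274, and not every library was closest to its own number, so the numbers were not taken as pairs. The number of cultures limits precision, and depth cannot be judged from TPM.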
